A study of Mus musculus with 16 samples.

Results

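Primary lung fibroblasts from ST2 knockout (KO) mice were compared with those from wild-type (WT) mice under a control adenovirus that carries no coding insert (AdV-NULL). The comparison rests on 4 of the 16 samples in the series, taken by their labels: 2 libraries of ST2 KO cells with AdV-NULL (KO NULL 1 and 2) and 2 of wild-type cells with AdV-NULL (WT NULL 1 and 2). Both genotypes are labelled C57BL/6, and RNA of all groups was taken 72 h after infection. The 4 fibroblast libraries with adenovirus for IL-33 (full-length, FL, or mature, M; 1 library of each per genotype) are used below only as a second setting for the same genes. The knockout allele, the number, age and sex of the mice, the virus dose and the way the fibroblasts were isolated are not given in the sources used here. The labels do not state whether 2 libraries of a genotype stem from different mice or different dishes. Each p-value therefore reflects only the spread between these libraries, which may be technical. A difference between genotypes cannot be told apart from one between the cultures or mice behind each pair.

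ST2, encoded by Il1rl1, is the receptor chain that binds IL-33, an alarmin of the IL-1 family stored in the nucleus of barrier and stromal cells. On binding, ST2 pairs with the IL-1 receptor accessory protein and signals through MyD88 and IRAK kinases to NF-kB and MAP kinases. In the lung it is best known on mast cells, group 2 innate lymphoid cells and regulatory T cells. Lung fibroblasts build collagen and elastic fibres, and, like most cells, answer viral nucleic acid with interferon and with interferon-stimulated genes, which an adenoviral vector can also set off.

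The deposited values are normalized counts per gene. They sum to 2.805e+07 and 2.809e+07 in KO NULL 1 and 2, against 2.902e+07 and 2.898e+07 in WT NULL 1 and 2, with 22200 to 23645 genes above 0. The 2 deposited tables hold the same values (434648 compared, 2 not identical, largest relative difference 6.5e-15). Their columns bear the titles of fibroblast samples although 1 table is assigned by the labels to unseparated lung cells, so the cell type was read from the titles. Fibroblast genes were abundant in all 4 libraries: Col1a1, a chain of type I collagen, was at 294450 and 293380 normalized counts in KO NULL fibroblasts, against 360030 and 339870 in WT NULL fibroblasts. Pdgfra, the PDGF receptor that marks fibroblasts, was at 2129.6 and 2244 in KO NULL and 1695 and 1800.2 in WT NULL. Of the defining markers of T cells, Cd3e and Cd3g were listed at 0 in all 4 libraries. Cd3d was at 0 in both WT NULL libraries but not in both KO NULL libraries. Y chromosome genes were read in both genotypes, so both pairs held male cells. Ddx3y was at 3068 and 3295 in KO NULL and 3141 and 3317 in WT NULL. Kdm5d was at 584 and 619 in KO NULL and 705 and 658 in WT NULL. The 4 tested sex markers, all on the Y chromosome, did not pass the test used below.

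The targeted gene was read first. Il1rl1 (chr1:40429570-40465415, plus strand, GRCm38) was at 73.1 and 69.2 normalized counts in KO NULL fibroblasts, against 18.3 and 106 in WT NULL fibroblasts. The WT libraries lay on both sides of the KO libraries, and the difference did not pass the test (log2 change 0.67, SE 0.70, adjusted p = 0.507; limma). Because a deleted exon can leave the gene's total in place, this value does not check the knockout. KO stands below for the libraries labelled ST2 KO. Without WT NULL 1 the log2 change was -0.57, in the other direction. Without WT NULL 2 the log2 change of Il1rl1 passed the test, with adjusted p = 0.00794. Il33 itself was at 216 and 214 normalized counts in KO NULL fibroblasts, against 193 and 201 in WT NULL fibroblasts (log2 change 0.13, adjusted p = 0.417).

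Genotype separated the NULL libraries across a large part of the transcriptome, mostly by less than 2-fold. Of 15527 genes with a mean of at least 10 normalized counts over the 8 fibroblast libraries, 2477 (16.0%) were higher and 2612 (16.8%) lower in KO NULL than in WT NULL, 5089 (32.8%) in all. Here and below a gene is called when its Benjamini-Hochberg adjusted p is under 0.05 in limma-trend, two-sided, fitted to the 4 NULL libraries on log2(normalized count + 1). Changes of at least 2-fold were called for 573 genes higher in KO (3.69%) and 385 lower (2.48%), and of at least 4-fold for 165 and 87. Predicted gene models made up 130 of the 573 and 33 of the 385. The median log2 change over all tested genes was -0.0022.

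The pairs were close within themselves. Among 12559 genes with a mean of at least 50, 51 differed by over 2-fold between the KO NULL libraries and 63 between the WT NULL libraries, whereas 641 did between the pair means. At 10622 of the 15527 tested genes (68.4%) the values of the pairs did not overlap. The count of 5089 was 2624 without KO NULL 1 and 2805 without KO NULL 2, where the 1 KO library left is assumed to vary like the WT pair. It was 664, 400 higher and 264 lower, when all 8 libraries were fitted in 4 groups, genotype by NULL or IL-33, where the difference between the FL and M libraries adds to the spread.

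**Figure D1:**
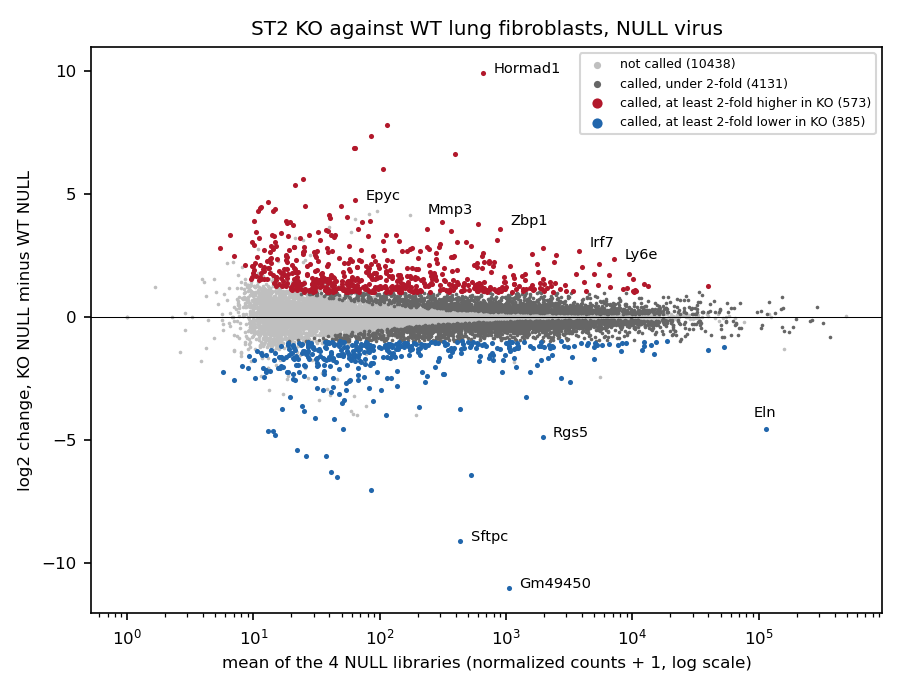
Change of every tested gene in ST2 KO against WT fibroblasts with NULL virus (y axis, log2, KO minus WT) against its mean over the 4 NULL libraries (x axis, normalized counts + 1, log scale). Grey points are not called or changed by less than 2-fold, red points (573) are called at least 2-fold higher and blue points (385) at least 2-fold lower in KO; Eln stands out as a large fall at very high abundance.

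The 12 largest rises among annotated genes (adjusted p under 0.05, mean of at least 50, pairs not overlapping) held 3 genes of antiviral or complement defence beside genes of other roles. Hormad1, a meiotic chromosome axis protein normally limited to germ cells, was at 1276 and 1344 normalized counts in KO NULL fibroblasts, against 0.811 and 0 in WT NULL fibroblasts (log2 change 9.93, SE 0.32, adjusted p = 5.87e-06). It was nearly silent in both WT libraries and well expressed in both KO libraries. Zbp1, a sensor of Z-form nucleic acid that can start necroptosis, was at 1649.9 and 1665 normalized counts in KO NULL fibroblasts, against 149 and 128 in WT NULL fibroblasts (log2 change 3.57, SE 0.098, adjusted p = 3.48e-06). Cfb, factor B of the alternative complement pathway, was at 554 and 612 normalized counts in KO NULL fibroblasts, against 31.5 and 48.3 in WT NULL fibroblasts (log2 change 3.86, adjusted p = 3.81e-05). Zbp1 rose 11.9-fold and Cfb 14.6-fold on the fitted scale, and the pairs of all 3 genes did not overlap. Mmp3 (stromelysin), which cleaves proteoglycans and activates other matrix proteases, was at 1136 and 1094 normalized counts in KO NULL fibroblasts, against 73.1 and 89.4 in WT NULL fibroblasts (log2 change 3.77, adjusted p = 5.90e-06). Tnfsf15, the TNF family ligand TL1A, was at 442 and 428 in KO NULL and 29.7 and 42.03 in WT NULL (log2 change 3.58, adjusted p = 3.51e-05).

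Among the others, Zhx2, a transcriptional repressor with zinc fingers and homeoboxes, was at 647 and 700.1 normalized counts in KO NULL fibroblasts, against 54.7 and 62.9 in WT NULL fibroblasts (log2 change 3.499, adjusted p = 8.21e-06). Dio2, the deiodinase that makes active thyroid hormone, was at 255 and 229.5 in KO NULL and 24.8 and 21.6 in WT NULL (log2 change 3.33, adjusted p = 3.88e-05). Epyc (epiphycan), a small proteoglycan known from cartilage, was at 126 and 119 in KO NULL and 4.28 and 3.005 in WT NULL (log2 change 4.75, adjusted p = 7.04e-05). The homeobox gene Cux2 was at 132 and 154 in KO NULL and 23.04 and 7.78 in WT NULL, and the zinc finger gene Zfp965 was at 138 and 166 in KO NULL and 3.95 and 19.8 in WT NULL. The WT libraries of both genes differed from each other by several fold. Kprp, a keratinocyte protein gene, was at 124 and 123 in KO NULL and 10.4 and 8.62 in WT NULL, and Oas1g is described with its family below. All 12 had higher values in both KO libraries than in either WT library, as the rule of choice required.

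The 12 largest falls held genes of the vessel wall, of epithelium and the elastin gene. Eln, the soluble precursor of elastic fibres, was at 9082 and 9151 normalized counts in KO NULL fibroblasts, against 228090 and 208660 in WT NULL fibroblasts, a 23.9-fold difference (log2 change -4.58, SE 0.045, adjusted p = 7.96e-08; chr5:134702593-134747323, minus strand). Among all named genes it had the smallest adjusted p. Rgs5 and Rgs4, regulators of G-protein signalling that mark pericytes and other mural cells, fell together: Rgs5 was at 129 and 119 normalized counts in KO NULL fibroblasts, against 3709 and 3820.2 in WT NULL fibroblasts (log2 change -4.91, SE 0.074, adjusted p = 7.34e-07). Rgs4 was at 281 and 258 in KO NULL and 2508 and 2690.5 in WT NULL (log2 change -3.27, adjusted p = 2.57e-06). Sult4a1, a sulfotransferase known from brain, was at 58.7 and 57.3 in KO NULL and 808 and 804 in WT NULL (log2 change -3.77, adjusted p = 3.64e-06). Gpr165, an orphan receptor, was at 10.9 and 14.1 in KO NULL and 213 and 209 in WT NULL (log2 change -3.98, adjusted p = 4.05e-05). Eya2, a transcriptional coactivator and phosphatase, was at 18.8 and 24.6 in KO NULL and 188 and 171 in WT NULL (log2 change -2.997, adjusted p = 1.15e-04).

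The other 6 falls were genes that define other lung cell types: Sftpc and Sftpb (surfactant proteins of alveolar type 2 cells), Krt7 and Krt8 (keratins of simple epithelium and mesothelium), and Cdh5 and Erg (endothelial cadherin and an endothelial transcription factor). Their values stand with the marker lists below. In a bulk library, fewer cells of a type and less RNA per cell cannot be told apart. In the fit of all 8 libraries in 4 groups, Cux2, Rgs5, Rgs4, Gpr165, Krt7, Krt8 and Erg were no longer called, and Zfp965 was not called when the variance was fitted without its trend on the mean (adjusted p = 0.0568).

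**Figure D2:**
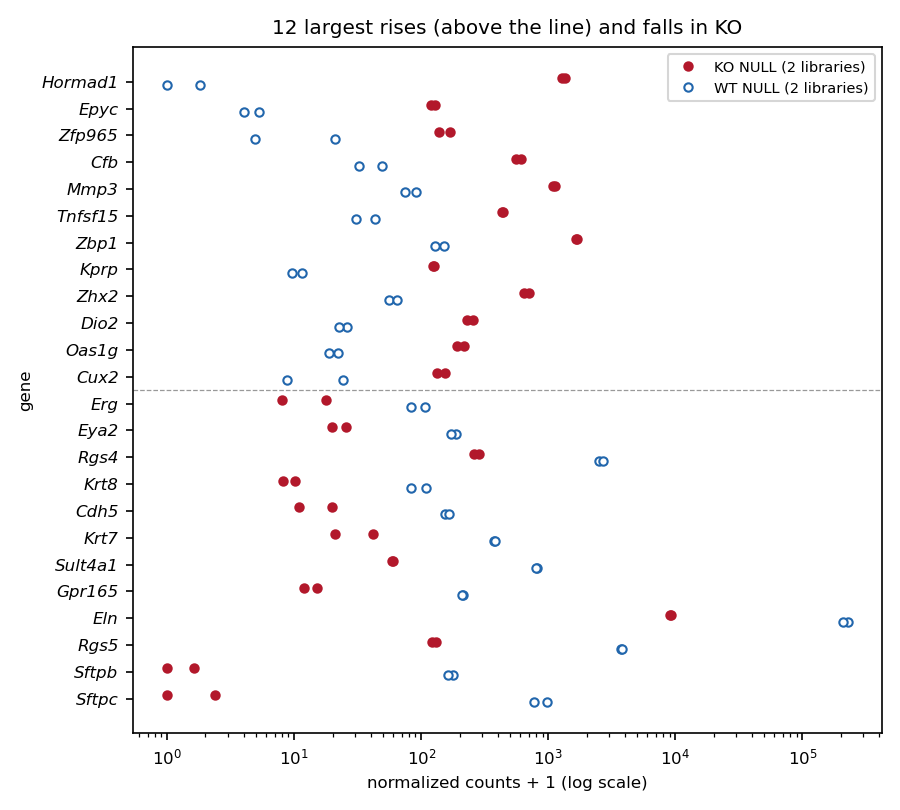
Level in each NULL library (x axis, normalized counts + 1, log scale) of the 12 annotated genes with the largest rises and the 12 with the largest falls in KO (y axis). Filled red points are KO NULL and open blue points WT NULL, 2 libraries each; within every gene the pairs lie apart, by the widest gap for Hormad1 and Sftpc.

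Interferon-stimulated genes rose in KO across every family listed. Of 84 tested genes in 5 lists of interferon-induced effectors, 70 were called higher in KO NULL and 1 lower, beside 16.0% and 16.8% of all tested genes, and 47 were at least 2-fold higher (3.69% of all genes). Their median log2 change was 1.16, against -0.0022 over all genes. These shares of all genes, 16.0% higher and 16.8% lower, and 3.69% and 2.48% by at least 2-fold, are the background of each list count that follows. Summed over the 86 listed genes, the level was 174370 and 173870 normalized counts in KO NULL fibroblasts, against 85833 and 88899 in WT NULL fibroblasts. Leaving out any 1 NULL library left 64 to 70 called higher, and the fit of 8 libraries in 4 groups called 51 higher and 1 lower. Reads of near-identical copies (Oas1a and Oas1g, Tgtp1 and Tgtp2, the H2-Q genes) may have been divided between them by the authors' quantification, so single values of these genes are less certain than those of their family.

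Many promoters of this group carry the interferon-stimulated response element, a site bound by transcription factors downstream of the interferon receptors. In windows of 250 bases before to 50 bases after the gene start (RefSeq, GRCm38.p6), the letters GAAANNGAAA, read on both strands, occurred in 33 of the 61 effector genes with a window (54.1%), against 428 of 11132 tested genes (3.84%) and 1079 of all 27025 windows (3.99%). They were in 29 of the 50 called higher (58.0%) and in 4 of the 11 others (36.4%). By family they occurred in 9 of 10 guanylate-binding protein and immunity-related GTPase genes in 4 of 6 OAS genes and in 8 of 12 IFIT and sensor genes, against 3 of 8 Ly6 and Schlafen genes and 9 of 25 other interferon-stimulated genes. Among all genes called at least 2-fold higher 52 of 347 windows held them (15.0%), and among those at least 2-fold lower 6 of 263 (2.28%). A match is a description of the letters and not of a bound site.

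The windows of 4 strongly raised effector genes, chosen among those with a match, are printed 5′ to 3′ on the gene's strand. They show where the element lies, with the matching letters in capitals. The genes are Oas1g (chr5:120887564-120887863), Trim30a (chr7:104465144-104465443), Oas3 (chr5:120777610-120777909) and Oas1a (chr5:120907476-120907775), all on the minus strand. Zbp1 (3.57), Ly6a (3.06), Oas2 (2.97) and Slfn1 (2.84) had larger log2 changes than Oas1a (2.61) but no window with a match. In Oas1g and Oas1a 2 matches overlap in 1 stretch that begins 18 and 20 bases before the gene start, the Oas3 match begins 75 bases before it, and the Trim30a match, on the opposite strand, 36 bases before it.
Oas1g: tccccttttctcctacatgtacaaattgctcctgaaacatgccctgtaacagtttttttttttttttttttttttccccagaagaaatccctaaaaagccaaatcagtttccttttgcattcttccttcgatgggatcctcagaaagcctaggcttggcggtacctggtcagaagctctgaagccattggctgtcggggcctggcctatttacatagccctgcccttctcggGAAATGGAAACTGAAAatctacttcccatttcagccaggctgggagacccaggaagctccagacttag
Oas1a: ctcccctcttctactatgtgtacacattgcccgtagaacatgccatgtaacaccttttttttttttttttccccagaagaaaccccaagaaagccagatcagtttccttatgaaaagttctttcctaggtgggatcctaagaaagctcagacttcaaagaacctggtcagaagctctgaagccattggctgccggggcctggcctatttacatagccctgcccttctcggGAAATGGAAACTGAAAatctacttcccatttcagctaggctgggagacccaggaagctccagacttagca
Oas3: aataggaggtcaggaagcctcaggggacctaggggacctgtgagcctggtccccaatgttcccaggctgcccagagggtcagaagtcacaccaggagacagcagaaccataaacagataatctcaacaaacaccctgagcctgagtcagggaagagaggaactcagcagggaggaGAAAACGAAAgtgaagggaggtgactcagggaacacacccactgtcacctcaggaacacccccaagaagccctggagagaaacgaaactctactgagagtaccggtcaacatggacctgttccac
Trim30a: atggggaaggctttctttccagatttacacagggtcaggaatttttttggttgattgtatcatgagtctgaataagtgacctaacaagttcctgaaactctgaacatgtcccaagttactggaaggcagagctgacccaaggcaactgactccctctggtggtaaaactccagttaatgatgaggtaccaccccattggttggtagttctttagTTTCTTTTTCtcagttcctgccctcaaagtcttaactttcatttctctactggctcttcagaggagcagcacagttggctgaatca

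The OAS proteins make oligoadenylate, an antiviral second messenger, when double-stranded RNA is present. Of 9 tested members of that list, 7 were called higher, all by at least 2-fold, and 0 lower. Oas1g, whose element is printed above, was at 216 and 189 normalized counts in KO NULL fibroblasts, against 17.6 and 20.96 in WT NULL fibroblasts (log2 change 3.33, SE 0.20, adjusted p = 5.83e-05). Oas2 was at 530.2 and 526 normalized counts in KO NULL fibroblasts, against 71.4 and 61.6 in WT NULL fibroblasts (log2 change 2.97, adjusted p = 1.48e-05). Oas3 was at 519 and 519 in KO NULL and 78.4 and 65.9 in WT NULL (log2 change 2.84, adjusted p = 2.08e-05). Oas1a was at 1106 and 1137 in KO NULL and 170.4 and 196 in WT NULL (log2 change 2.61, adjusted p = 8.35e-06). Each of these 4 genes lay at a low but measurable level in both WT libraries and several-fold above it in both KO libraries. Oasl2, the most abundant of the named members, was at 4006 and 3994 in KO NULL and 1841 and 2035 in WT NULL (log2 change 1.047, adjusted p = 4.13e-05).

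Of 15 IFIT genes and sensors of foreign RNA or DNA, 12 were called higher and 0 lower, 4 of them by at least 2-fold. Ifit3, of the family that binds foreign RNA, was at 2158 and 2155 normalized counts in KO NULL fibroblasts, against 644 and 647 in WT NULL fibroblasts (log2 change 1.74, SE 0.055, adjusted p = 5.62e-06). Ifit1 was at 4104 and 4212 in KO NULL and 1675 and 1759.5 in WT NULL (log2 change 1.28, adjusted p = 9.04e-06). Ifih1 (MDA5), a sensor of long double-stranded RNA, was at 1686 and 1498 in KO NULL and 846 and 896 in WT NULL (log2 change 0.87, adjusted p = 3.02e-04). The signalling adaptor Mavs (-0.04) and the DNA sensor Cgas (0.13) were not called.

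Guanylate-binding proteins and immunity-related GTPases attack membranes of vacuoles that hold pathogens. In this list 13 of 16 were called higher, 8 by at least 2-fold, and 0 lower. Gbp2 was at 3227 and 3242 normalized counts in KO NULL fibroblasts, against 1175 and 1250.3 in WT NULL fibroblasts (log2 change 1.42, SE 0.053, adjusted p = 8.37e-06). Gbp3 was at 1616 and 1654 in KO NULL and 668 and 642 in WT NULL (log2 change 1.32, adjusted p = 1.99e-05). Tgtp2, a T-cell-specific GTPase by name, was at 583 and 650.5 in KO NULL and 109 and 118 in WT NULL (log2 change 2.43, adjusted p = 2.05e-05). Irgm1, a regulator of the other GTPases, was the most abundant of those named, at 9961 and 9684 in KO NULL and 5666 and 5844 in WT NULL (log2 change 0.77, adjusted p = 2.63e-05).

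The Ly6 and Schlafen list had 8 of 10 called higher, 7 by at least 2-fold, and 0 lower. Ly6e, a membrane-anchored protein that limits coronavirus entry and is widely induced by interferon, was at 12046 and 11889 normalized counts in KO NULL fibroblasts, against 2378 and 2370.3 in WT NULL fibroblasts (log2 change 2.33, SE 0.037, adjusted p = 7.34e-07). Ly6a (Sca-1) was at 884 and 844 in KO NULL and 93.4 and 113 in WT NULL (log2 change 3.06, adjusted p = 1.08e-05). Slfn5 was at 1036 and 1033 in KO NULL and 255 and 263 in WT NULL (log2 change 1.996, adjusted p = 8.91e-06). Slfn2 was at 858 and 914 in KO NULL and 322 and 358 in WT NULL (log2 change 1.38, adjusted p = 7.35e-05). The values of Ly6e in the KO NULL pair differed by little, and those in the WT NULL pair by less.

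Of 34 other interferon-stimulated genes, 30 were called higher, 21 by at least 2-fold. Bst2 (tetherin), which holds budding virus at the cell surface, was at 18884 and 18799 normalized counts in KO NULL fibroblasts, against 7816 and 8102 in WT NULL fibroblasts (log2 change 1.24, SE 0.035, adjusted p = 3.55e-06). Ifi44 was at 7686 and 7571 in KO NULL and 3020.4 and 3174 in WT NULL (log2 change 1.300, adjusted p = 6.11e-06). Lgals3bp was at 14354 and 14267 in KO NULL and 6703 and 6627 in WT NULL (log2 change 1.102, adjusted p = 4.52e-06). Usp18, the protease that removes ISG15 and damps interferon receptor signalling, was at 2919 and 2871 in KO NULL and 988 and 1027 in WT NULL (log2 change 1.52, adjusted p = 6.34e-06). Trim30a, chosen for display after its value was seen, was at 1454 and 1577 in KO NULL and 190.4 and 154 in WT NULL (log2 change 3.14, adjusted p = 8.37e-06). The 1 gene called lower was Ifi27, at 2145 and 2068 normalized counts in KO NULL fibroblasts, against 4680.5 and 4869.8 in WT NULL fibroblasts (log2 change -1.18, adjusted p = 1.08e-05), also named after its value was seen. With 8 added before the log, with quantile normalization or without the mean trend, a second gene of the list was called lower.

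Of 21 interferon receptors, JAK-STAT members and interferon regulatory factors, 11 were called higher and 2 lower, with a median log2 change of 0.21. Only Irf7, the factor that amplifies type I interferon production, was called at least 2-fold higher, at 6642 and 6448 normalized counts in KO NULL fibroblasts, against 999 and 1056 in WT NULL fibroblasts (log2 change 2.67, SE 0.050, adjusted p = 1.51e-06). Stat2 was at 4415 and 4458 in KO NULL and 3379 and 3166 in WT NULL (log2 change 0.44, adjusted p = 7.53e-04). Jak1 was at 6925 and 6821 in KO NULL and 5599.9 and 5814 in WT NULL (log2 change 0.27, adjusted p = 0.00268). Ifnb1 was listed at 0 in both WT NULL libraries and Ifng at 0 in all 4, and neither reached the level needed for a test. The 11 were 5 without either KO NULL library in turn, 5 without the mean trend and 1 in the fit of 4 groups, in which Stat2 and Jak1 were not called; the 2 lower calls were 0 or 1 in each of these and without either WT NULL library.

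MHC class I genes and the proteins that load peptide onto them rose as a group, with 19 of 20 called higher, 8 by at least 2-fold, 0 lower and a median log2 change of 0.91. H2-D1 was at 12275 and 12801 normalized counts in KO NULL fibroblasts, against 5407 and 5609 in WT NULL fibroblasts (log2 change 1.19, SE 0.040, adjusted p = 6.34e-06). H2-K1 was at 9222 and 9403 in KO NULL and 3920 and 4156 in WT NULL (log2 change 1.21, adjusted p = 7.91e-06), both classical antigen-presenting molecules. The Qa region genes H2-Q4 and H2-Q6 had log2 changes of 1.37 and 1.42. Between 14 and 17 members were called higher without 1 NULL library, and 12 in the fit of 4 groups. The response element letters occurred in 5 of 17 promoter windows of this list (29.4%).

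**Figure D3:**
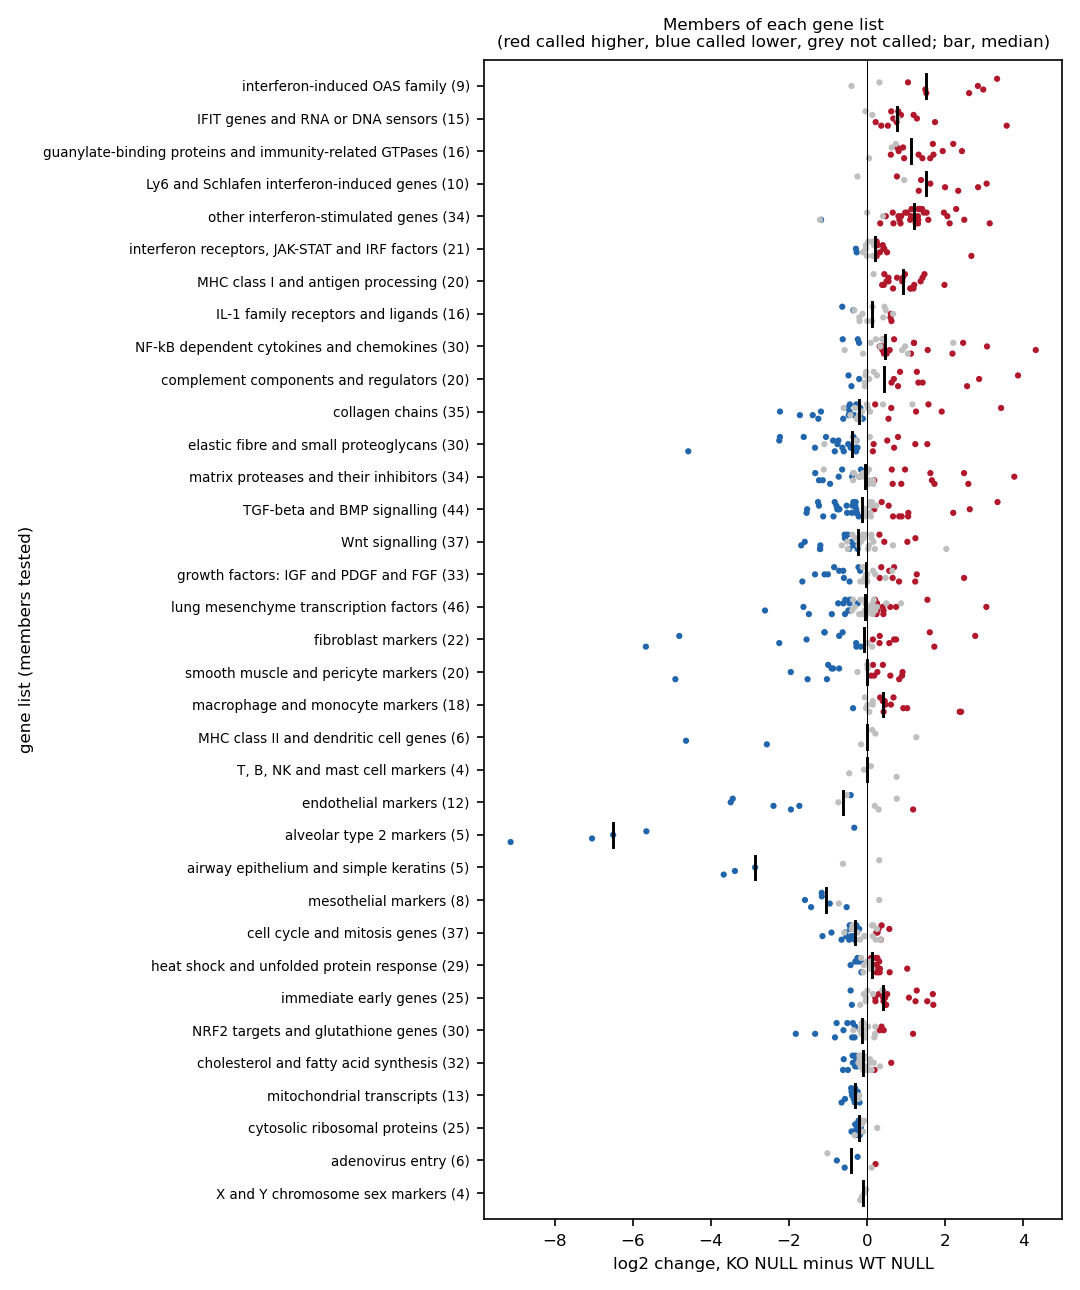
Log2 change in KO NULL against WT NULL (x axis) of every tested member of the 35 gene lists (y axis, members tested in brackets). Points are genes, red called higher, blue called lower and grey not called, and black bars are list medians; the interferon and MHC class I lists lie to the right of 0, and the alveolar type 2, keratin and mesothelial lists to the left.

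Genes of the IL-1 receptor family and its signalling chain, to which ST2 belongs, were called at shares near those of all tested genes. Of 16 tested, 3 were called higher (18.8%) and 2 lower (12.5%), beside 16.0% and 16.8% of all tested genes. None was called at 2-fold, and the median log2 change was 0.13. The signalling receptor for IL-1, Il1r1, was at 1959 and 1816 normalized counts in KO NULL fibroblasts, against 1211 and 1237 in WT NULL fibroblasts (log2 change 0.62, SE 0.059, adjusted p = 4.35e-04). The shared accessory chain Il1rap was at 1448 and 1371 in KO NULL and 879 and 984 in WT NULL (log2 change 0.598, adjusted p = 0.00137) and the IL-36 receptor Il1rl2 at 542 and 556 in KO NULL and 354 and 366 in WT NULL (log2 change 0.61, adjusted p = 0.00184). Irak4, the kinase next to MyD88, was at 343 and 337 in KO NULL and 455 and 415 in WT NULL (log2 change -0.35, adjusted p = 0.0259) and lost its call when KO NULL 1, KO NULL 2 or WT NULL 1 was left out (adjusted p = 0.112, 0.121 and 0.111). Both lower calls of the list were lost in each of these cases. Myd88 did not pass the test (1114 and 1254 in KO NULL and 1178 and 1178 in WT NULL; log2 change 0.01).

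Il1r1 and Il1rl2 lie beside Il1rl1 on chromosome 1, which led to a look at the whole neighbourhood. Within 10 Mb of Il1rl1, 37 of 97 tested genes were called (38.1%), 20 higher and 17 lower, beside 32.8% of all genes. Over 20 chromosomes the share ran from 27.6% (chromosome 7) to 38.6% (chromosome 15). At least 2-fold changes were called for 6 of the 97 (6.19%), against 6.17% of all genes. Fhl2, a LIM-domain coactivator, was at 3741 and 3719.8 normalized counts in KO NULL fibroblasts, against 7169.8 and 7332 in WT NULL fibroblasts (log2 change -0.96, adjusted p = 1.14e-05). Rab23, a small GTPase that restrains hedgehog signalling, was at 2613 and 2609 in KO NULL and 1089 and 1320.5 in WT NULL (log2 change 1.12, adjusted p = 2.05e-04). Prim2, the large subunit of primase, was at 825 and 787 in KO NULL and 382 and 405 in WT NULL (log2 change 1.03, adjusted p = 1.54e-04). The cytolinker gene Dst (-0.56) and Uggt1 (-0.54), a folding sensor of the endoplasmic reticulum, were called lower.

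Targets of NF-kB, the factor on which ST2 signals converge, were more often higher than lower in KO. Of 30 cytokine, chemokine and regulator genes, 17 were called higher, 8 by at least 2-fold, and 3 lower (median 0.47), or 56.7% and 10%, beside 16.0% and 16.8% of all tested genes. Ccl5, a chemokine for T cells that interferon factors also induce, was at 257 and 245 normalized counts in KO NULL fibroblasts, against 30.2 and 27.8 in WT NULL fibroblasts (log2 change 3.07, SE 0.16, adjusted p = 3.52e-05). Il6 was at 1053 and 1041 normalized counts in KO NULL fibroblasts, against 456 and 454 in WT NULL fibroblasts (log2 change 1.201, adjusted p = 4.12e-05). Ptgs2 (cyclooxygenase 2), which makes prostaglandin precursors, was at 11701 and 11378 in KO NULL and 5292 and 5305 in WT NULL (log2 change 1.12, adjusted p = 5.82e-06). Csf1, the macrophage growth factor, was at 85792 and 85340 in KO NULL and 56701 and 57940 in WT NULL (log2 change 0.58, adjusted p = 2.40e-05). The NF-kB inhibitor gene Nfkbia did not pass the test (637 and 546 in KO NULL and 599 and 511 in WT NULL; log2 change 0.09). The 17 were 9 without KO NULL 1 or without KO NULL 2, 11 without the mean trend and 4 in the fit of 4 groups. The 3 lower calls were 1 without either KO NULL library or without WT NULL 2.

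Complement genes were more often higher than lower. Of 20 tested, 10 were called higher (50%, 6 by at least 2-fold) and 3 lower (15.0%), beside 16.0% and 16.8% of all tested genes. C3, the central component, was at 2761 and 2692 normalized counts in KO NULL fibroblasts, against 485 and 439 in WT NULL fibroblasts (log2 change 2.56, SE 0.069, adjusted p = 3.36e-06). C4b was at 948 and 907 in KO NULL and 141 and 113 in WT NULL (log2 change 2.87, adjusted p = 1.57e-05). Serping1, the inhibitor of C1 proteases, was at 6036 and 6040.3 in KO NULL and 2224 and 2283 in WT NULL (log2 change 1.42, adjusted p = 3.77e-06). The products of C4b and Cfb are parts of the classical and the alternative convertase. C1qa, C1qb and C1qc, mainly made by macrophages, had log2 changes of -0.06, 0.06 and -0.03 and were not called. Lower calls included Masp1 (-0.48) and C1rl (-0.401). In the fit of 4 groups 3 genes were called higher, and C3 and Serping1 were not called. The 3 lower calls were 1 when either KO NULL library or WT NULL 2 was left out.

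Genes of elastic fibres and small leucine-rich proteoglycans were more often lower than higher in KO. Of 30 tested, 20 were called lower (66.7%, 6 by at least 2-fold) and 7 higher (23.3%), beside 16.8% and 16.0% of all tested genes, with a median of -0.39. Fbln5 (fibulin 5), which tethers elastin to cells, was at 22824 and 22564 normalized counts in KO NULL fibroblasts, against 55885 and 58723 in WT NULL fibroblasts (log2 change -1.34, SE 0.034, adjusted p = 2.89e-06). Lower calls included Fbn1 (-0.83) and Fbn2 (-1.62), the fibrillins of the microfibril scaffold, Ltbp4 (-2.23), which guides elastin assembly, and Lox (-0.598) and Loxl1 (-0.76), the crosslinking enzymes. Other elastic fibre genes were called higher: Efemp1 (1.23), Fbln1 (0.52) and Efemp2 (0.17), of the fibulin family. These 8 were named after their values were seen. Among proteoglycans, Aspn (asporin) was lower at 546 and 535 in KO NULL and 2463 and 2692 in WT NULL (log2 change -2.25, adjusted p = 3.77e-06), and Prelp higher at 15120 and 14965 in KO NULL and 5328 and 5006 in WT NULL (log2 change 1.54, adjusted p = 3.36e-06). Between 18 and 19 were called lower without 1 NULL library, 13 without the mean trend, and 3 in the fit of 4 groups (Eln, Ltbp3 and Ltbp4). The 7 higher calls were 4 without KO NULL 1 or without the mean trend and 0 in the fit of 4 groups.

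Collagen genes went both ways, with 16 of 35 called lower (45.7%) and 7 higher (20.0%), beside 16.8% and 16.0% of all tested genes, 5 and 4 of them by at least 2-fold (median -0.21). Col12a1, a fibril-associated collagen, was at 32540 and 30926 normalized counts in KO NULL fibroblasts, against 74598 and 76274 in WT NULL fibroblasts (log2 change -1.25, SE 0.035, adjusted p = 3.55e-06). Col11a1, which sets fibril diameter, was at 4577 and 4348 in KO NULL and 11278 and 12178 in WT NULL (log2 change -1.39, adjusted p = 8.06e-06). The main fibrillar chains changed by less than 2-fold and in different directions: Col1a1 -0.25, Col1a2 -0.18 and Col3a1 0.62 (log2), the last at 146480 and 145950 in KO NULL and 92981 and 97641 in WT NULL. Col15a1, a basement membrane collagen, was higher at 622 and 669.9 in KO NULL and 169 and 173 in WT NULL (log2 change 1.91, adjusted p = 2.60e-05). Without the mean trend 10 were called lower. In the fit of 4 groups 3 were called lower and 2 higher, and Col12a1, Col1a1, Col1a2 and Col3a1 were not called. The response element letters occurred in 0 of 29 collagen promoter windows and in 3 of 20 windows (15.0%) of the elastic fibre and proteoglycan list.

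Matrix proteases and their inhibitors also divided. Of 34 tested, 11 were called higher (32.4%) and 10 lower (29.4%), beside 16.0% and 16.8% of all tested genes, 6 and 3 of them by at least 2-fold. Beside Mmp3, the macrophage elastase gene Mmp12 was at 1451 and 1438 normalized counts in KO NULL fibroblasts, against 471 and 467 in WT NULL fibroblasts (log2 change 1.62, adjusted p = 9.77e-06). Timp1, an inhibitor of most MMPs, was at 14418 and 14572 normalized counts in KO NULL fibroblasts, against 4337 and 4431 in WT NULL fibroblasts (log2 change 1.73, SE 0.035, adjusted p = 1.89e-06). Adamts12 was lower at 8831 and 8737 in KO NULL and 19299 and 19333 in WT NULL (log2 change -1.14, adjusted p = 3.55e-06). In the fit of 4 groups 1 was called higher and 0 lower, and Timp1, Mmp12 and Adamts12 were not called.

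Genes of TGF-beta and BMP signalling were called lower in 22 of 44 cases (50%) and higher in 11 (25.0%), beside 16.8% and 16.0% of all tested genes, 5 each way by at least 2-fold (median -0.14). Bmp4 was at 1198 and 1198 normalized counts in KO NULL fibroblasts, against 2868 and 2768 in WT NULL fibroblasts (log2 change -1.23, SE 0.050, adjusted p = 1.20e-05). The BMP target genes Id1 (-0.51), Id2 (-0.71), Id3 (-0.83) and Smad6 (-1.26) were called lower. The ligand genes Gdf10 (2.63), Inhba (1.055) and Tgfb3 (0.66) and the receptor gene Bmpr1b (1.050) were called higher. These 8 were named after their values were seen. Fstl1 was lower at 51284 and 51730 in KO NULL and 85084 and 86094 in WT NULL (log2 change -0.73, adjusted p = 8.37e-06). Without the mean trend 13 were called lower, and in the fit of 4 groups 6 were called higher and 4 lower, with Bmp4, Fstl1, Id1, Id3 and Inhba not called.

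Wnt pathway genes had 14 of 37 called lower (37.8%) and 4 higher (10.8%), beside 16.8% and 16.0% of all tested genes (median -0.22). These counts were 8 and 2 without KO NULL 1, 7 and 2 without KO NULL 2, 7 and 3 without the mean trend, and 1 and 0 in the fit of 4 groups. The receptors Fzd5, at 1409.6 and 1406 normalized counts in KO NULL fibroblasts, against 3359 and 3141 in WT NULL fibroblasts (log2 change -1.21, adjusted p = 1.65e-05), and Fzd6, at 728 and 781 in KO NULL and 1776 and 1688 in WT NULL (log2 change -1.198, adjusted p = 3.85e-05), were lower. The inhibitors Sfrp1 (2747 and 2598 in KO NULL and 1249 and 1368 in WT NULL; log2 change 1.03, adjusted p = 6.44e-05) and Nkd2 (649 and 640.2 in KO NULL and 266 and 280.5 in WT NULL; log2 change 1.24, adjusted p = 9.55e-05) were higher. Without WT NULL 2, 8 were called lower.

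IGF binding proteins changed in opposite directions. Igfbp5 was at 1131 and 1043 normalized counts in KO NULL fibroblasts, against 192 and 195 in WT NULL fibroblasts (log2 change 2.48, SE 0.084, adjusted p = 6.34e-06), whereas Igfbp3 was at 1036 and 1031 normalized counts in KO NULL fibroblasts, against 3157 and 3379.9 in WT NULL fibroblasts (log2 change -1.66, SE 0.055, adjusted p = 6.11e-06). Igfbp2 was at 12659 and 12471 in KO NULL and 24576 and 25864 in WT NULL (log2 change -1.005, adjusted p = 8.28e-06). All 3 bind insulin-like growth factors outside the cell. In the wider list of IGF, PDGF and FGF genes 9 of 33 were called higher (27.3%) and 11 lower (33.3%), beside 16.0% and 16.8% of all tested genes, and 3 and 2 in the fit of 4 groups. Pdgfrb, the PDGF receptor of mural cells and fibroblasts, was lower at 15751 and 15976 in KO NULL and 26124 and 26007 in WT NULL (log2 change -0.72, adjusted p = 1.42e-05).

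Marker genes of fibroblast subtypes were divided too: 9 of 22 called higher (40.9%) and 11 lower (50%), beside 16.0% and 16.8% of all tested genes, 3 and 6 by at least 2-fold. These counts were 5 and 7 without the mean trend, and 2 and 3 in the fit of 4 groups. Npnt (nephronectin), an extracellular ligand of integrins, was at 5405 and 5624 normalized counts in KO NULL fibroblasts, against 1712 and 1632 in WT NULL fibroblasts (log2 change 1.72, SE 0.048, adjusted p = 3.55e-06). Dpt (dermatopontin), a marker of adventitial fibroblasts, was at 313 and 288 in KO NULL and 39.4 and 47.4 in WT NULL (log2 change 2.77, adjusted p = 5.08e-05). Cthrc1, which marks collagen-rich fibroblasts in fibrotic lung, was lower at 1213 and 1153 in KO NULL and 3386 and 3548 in WT NULL (log2 change -1.55, adjusted p = 6.99e-06). Inmt, a methyltransferase of alveolar fibroblasts, had a listed 0 in each KO NULL library, against 52.4 and 47.3 in WT NULL.

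Smooth muscle and pericyte markers went both ways, with 9 of 20 called higher (45.0%) and 8 lower (40.0%), beside 16.0% and 16.8% of all tested genes, 0 and 4 by at least 2-fold. Actg2 (enteric smooth muscle actin) was higher at 46173 and 46672 normalized counts in KO NULL fibroblasts, against 24856 and 25058 in WT NULL fibroblasts (log2 change 0.895, adjusted p = 5.82e-06). The muscle genes Acta2 (0.403), Cnn1 (0.59) and Mylk (0.82) and the pericyte proteoglycan Cspg4 (0.91) were also called higher. Rgs5 was lower, as above, and Notch3, a receptor that maintains mural cells, was at 742 and 687 normalized counts in KO NULL fibroblasts, against 2912 and 2639 in WT NULL fibroblasts (log2 change -1.96, SE 0.072, adjusted p = 8.28e-06). The muscle genes Des (-0.998), Synpo2 (-0.91) and Myocd (-1.03) were called lower too, as was Abcc9, a potassium channel subunit, at 27.6 and 34.1 in KO NULL and 82.1 and 99.1 in WT NULL. Genes known from muscle and from pericytes thus stood on both sides, and these 8 beside Actg2, Rgs5 and Notch3 were named after their values were seen. The 9 higher calls were 5 without KO NULL 1, without KO NULL 2 or without the mean trend, and the fit of 4 groups called 2 higher and 0 lower.

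Of 46 transcription factors of lung mesenchyme 11 were called higher (23.9%) and 14 lower (30.4%), beside 16.0% and 16.8% of all tested genes. These counts were 1 and 9 without KO NULL 1, 1 and 10 without KO NULL 2, 7 and 8 without WT NULL 2, 3 and 9 without the mean trend, and 0 and 3 in the fit of 4 groups. Heyl, a Notch target, was at 17.8 and 12.5 in KO NULL and 87.5 and 107 in WT NULL (log2 change -2.62, adjusted p = 6.32e-04). Rgs5, Notch3, Actg2 and Heyl were not called in the fit of 4 groups.

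Markers of other cell types differed between the pairs, and their part in the results above was not tested. Alveolar type 2 markers were called lower in 5 of 5 tested genes, and Lamp3, Sftpd and Slc34a2 were listed at 0 in both KO NULL libraries. Sftpc was at 1.36 and 0 normalized counts in KO NULL fibroblasts, against 969 and 765 in WT NULL fibroblasts. Sftpb was at 0 and 0.639 normalized counts in KO NULL fibroblasts, against 177 and 159.8 in WT NULL fibroblasts, on the order of a trace in KO and clearly present in WT. Their log2 changes on the scale with 1 added were -9.13 (SE 0.42) and -7.05 (SE 0.39). Slc34a2, the phosphate carrier of these cells, was at 0 and 0 normalized counts in KO NULL fibroblasts, against 101 and 79.8 in WT NULL fibroblasts. Summed over the 7 listed genes, the level was 2462 and 2393 in KO NULL, against 4520 and 4058 in WT NULL, most of it from Abca3 (2461 and 2392 in KO NULL and 3114 and 2986 in WT NULL), a lipid carrier that other cells also make.

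Keratins of simple epithelium and mesothelial genes were more often lower than higher. Krt7 was at 19.8 and 40.9 normalized counts in KO NULL fibroblasts, against 371 and 379.8 in WT NULL fibroblasts (log2 change -3.67, adjusted p = 2.70e-04). Krt8 was at 7.09 and 9.19 in KO NULL and 81.95 and 108 in WT NULL (log2 change -3.39, adjusted p = 2.77e-04). Krt18 was at 7.09 and 12.02 in KO NULL and 74.8 and 73.2 in WT NULL (log2 change -2.87, adjusted p = 8.92e-04), and 3 of 5 genes of the airway and keratin list were called lower and 0 higher, while Krt19 (0.31) and Cdh1 (-0.62) were not called. Scgb1a1, the defining club cell gene, had a 0 in KO NULL 1 and in KO NULL 2. Of 8 mesothelial markers 6 were called lower, among them Upk3b, at 112 and 102 normalized counts in KO NULL fibroblasts, against 299 and 282 in WT NULL fibroblasts (log2 change -1.44, adjusted p = 3.02e-04), and Wt1, at 263 and 259 in KO NULL and 513 and 503 in WT NULL (log2 change -0.96, adjusted p = 3.43e-04). The summed mesothelial level was 700 and 682 in KO NULL, against 1443 and 1432 in WT NULL. Without WT NULL 1, 4 mesothelial genes were called lower, and in the fit of 4 groups 0 of either list.

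Endothelial markers were called lower in 6 of 12 genes and higher in 1. Cdh5 was at 18.9 and 9.89 normalized counts in KO NULL fibroblasts, against 153 and 165 in WT NULL fibroblasts (log2 change -3.44, SE 0.31, adjusted p = 3.68e-04). Emcn (endomucin) was at 8.55 and 6.05 in KO NULL and 81.7 and 103 in WT NULL (log2 change -3.49, adjusted p = 2.83e-04). Erg was at 16.8 and 6.995 in KO NULL and 81.9 and 106 in WT NULL (log2 change -2.98, adjusted p = 0.00211). Esam, an endothelial adhesion molecule, was at 86.1 and 63.4 in KO NULL and 390.0 and 398 in WT NULL (log2 change -2.398, adjusted p = 1.11e-04). Flt1 (VEGF receptor 1), the exception, was higher at 3086 and 2793 normalized counts in KO NULL fibroblasts, against 1329 and 1265 in WT NULL fibroblasts (log2 change 1.18, adjusted p = 3.97e-05), and Kdr (VEGF receptor 2) did not pass the test (111 and 132 in KO NULL and 108 and 89.4 in WT NULL). Summed over the 16 listed genes, Flt1 included, the level was 9328 and 8900 in KO NULL against 10326 and 9855 in WT NULL. The fit of 4 groups called 4 lower and 0 higher.

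Macrophage markers went the other way, with 11 of 18 called higher and 1 lower (median 0.41). Itgax (CD11c) was at 319.6 and 356 normalized counts in KO NULL fibroblasts, against 55.9 and 74.2 in WT NULL fibroblasts (log2 change 2.37, SE 0.17, adjusted p = 1.34e-04). Ctss (cathepsin S) was at 2031 and 2011 in KO NULL and 1000.5 and 1128 in WT NULL (log2 change 0.93, adjusted p = 1.56e-04). Cd68 was at 771 and 741 in KO NULL and 517 and 474 in WT NULL (log2 change 0.61, adjusted p = 0.00167). The summed level was 26725 and 26638 in KO NULL, against 23560 and 24505 in WT NULL, and Marco had a listed 0 in each KO NULL library. The 11 were 6 without KO NULL 1, and 0 in the fit of 4 groups. The 1 lower call was lost when either KO NULL library or WT NULL 1 was left out. Of 6 tested MHC class II and dendritic cell genes 2 were called lower and 0 higher: Cd74, the invariant chain, at 19.2 and 17.7 in KO NULL and 129 and 101 in WT NULL (log2 change -2.57, adjusted p = 3.36e-04), and H2-Aa, listed at 0 in both KO NULL libraries against 26.3 and 21.7 in WT NULL. The class II chain H2-Ab1, at 259 and 287 in KO NULL and 217 and 255 in WT NULL (log2 change 0.21), and Xcr1, a dendritic cell receptor, at 15.4 and 11.3 in KO NULL and 5.61 and 4.31 in WT NULL (log2 change 1.26), did not pass the test. Cd74 was not called in the fit of 4 groups. The 4 tested markers of T, B, NK and mast cells were not called, 2 of them at low level.

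**Figure D4:**
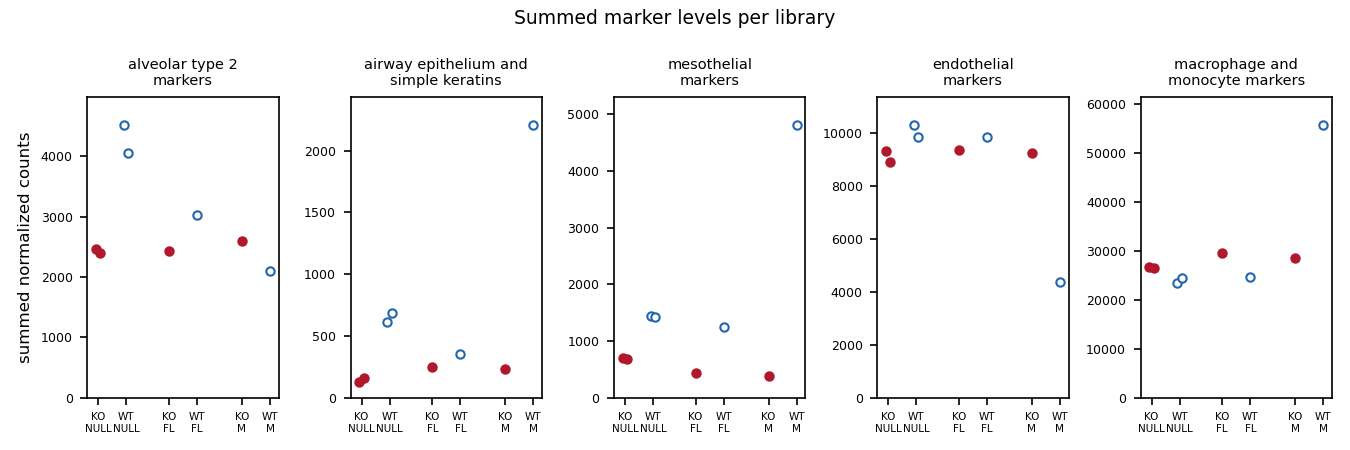
Summed level (y axis, normalized counts) of the markers of 5 other lung cell types in each of the 8 fibroblast libraries, KO in filled red and WT in open blue, for NULL, full-length (FL) and mature (M) IL-33 virus. In the NULL libraries alveolar type 2, keratin and mesothelial sums are lower in KO; the WT M library stands far from the other 7 in the keratin, mesothelial, endothelial and macrophage sums.

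Genes that respond within minutes to growth factors were more often higher in KO, with 16 of 25 immediate early genes called higher, 6 by at least 2-fold, and 2 lower (median 0.40). The orphan nuclear receptor Nr4a1 was at 1667 and 1779.8 normalized counts in KO NULL fibroblasts, against 554 and 509 in WT NULL fibroblasts (log2 change 1.696, SE 0.072, adjusted p = 1.46e-05). Nr4a2 was at 313 and 344 in KO NULL and 118 and 107 in WT NULL (log2 change 1.54, adjusted p = 2.19e-04). Egr2 was at 222 and 204 in KO NULL and 64.2 and 66.9 in WT NULL (log2 change 1.68, adjusted p = 2.74e-04). Fos (-0.08) and Junb (-0.04) were not called, and in the fit of 4 groups 5 were called higher. Of 37 cell cycle genes 18 were called lower (48.6%) and 6 higher (16.2%), beside 16.8% and 16.0% of all tested genes, with Top2a, the topoisomerase of dividing cells, at 972 and 1027 normalized counts in KO NULL fibroblasts, against 1504 and 1647 in WT NULL fibroblasts (log2 change -0.65, adjusted p = 6.50e-04). Ccnb1 (cyclin B1) was at 281 and 241 in KO NULL and 500.2 and 483 in WT NULL (log2 change -0.91, adjusted p = 0.00104). The 18 were 9 without KO NULL 1 or without the mean trend, 10 without KO NULL 2 and 4 in the fit of 4 groups, and the 6 were 2 without KO NULL 2.

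Small shifts across abundant genes, mostly towards lower levels in KO, were seen in 2 more lists. All 13 transcripts of the mitochondrial genome had negative log2 changes (-0.66 to -0.19), and 11 were called lower, for example mt-Nd5, a subunit of complex I, at 14324 and 13146 normalized counts in KO NULL fibroblasts, against 20008 and 20649 in WT NULL fibroblasts (log2 change -0.57, adjusted p = 2.45e-04). The 11 were 4 without the mean trend and 3 in the fit of 4 groups. Of 25 cytosolic ribosomal protein genes 19 were called lower and 0 higher, with a median of -0.21 and a range of -0.40 to 0.26. That count was 10 without KO NULL 1, 3 without KO NULL 2, 2 without the mean trend and 0 in the fit of 4 groups.

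Heat shock and unfolded protein genes had 15 of 29 called higher (51.7%) and 6 lower (20.7%), beside 16.0% and 16.8% of all tested genes. These counts were 6 and 4 without KO NULL 1, 3 and 1 without KO NULL 2 or without the mean trend, and 0 and 0 in the fit of 4 groups. They were led by the transcription factor Atf3 at 345 and 329 normalized counts in KO NULL fibroblasts, against 184 and 147 in WT NULL fibroblasts (log2 change 1.03, adjusted p = 0.00188). Among 30 NRF2 targets and glutathione genes 11 were called lower (36.7%) and 4 higher (13.3%), beside 16.8% and 16.0% of all tested genes, with Gpx3, a secreted glutathione peroxidase, at 4655 and 4597 in KO NULL and 8035 and 8344 in WT NULL (log2 change -0.82, adjusted p = 2.26e-05). Slc7a11, the cystine carrier, was at 957 and 827 in KO NULL and 423 and 365 in WT NULL (log2 change 1.18, adjusted p = 3.72e-04). The fit of 4 groups called 1 lower and 1 higher. Of 32 cholesterol and fatty acid synthesis genes 9 were called lower (28.1%) and 2 higher (6.25%), beside 16.8% and 16.0% of all tested genes. These counts were 4 and 0 without KO NULL 1, 5 and 0 without KO NULL 2, 2 and 1 without the mean trend, and 0 and 0 in the fit of 4 groups. Sqle (squalene epoxidase) was at 1554 and 1617 in KO NULL and 2405 and 2462 in WT NULL (log2 change -0.62, adjusted p = 2.21e-04). Of 6 genes for adenovirus entry 3 were called lower (50%) and 1 higher (16.7%, near the 16.0% of all genes), and 0 in the fit of 4 groups. The integrin subunit Itgb5, which takes part in adenovirus uptake, was at 17357 and 17899 normalized counts in KO NULL fibroblasts, against 25905 and 26622 in WT NULL fibroblasts (log2 change -0.58, adjusted p = 5.29e-05). Itgb1 was at 111840 and 111380 in KO NULL and 93650 and 98628 in WT NULL (log2 change 0.22, adjusted p = 0.0033). It was not called without KO NULL 1 or KO NULL 2 (adjusted p = 0.0799 and 0.0645). The amount of virus that reached the cells was not measured in the files, and its part in the interferon-stimulated genes was not tested.

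Some genes were read in 1 genotype and listed at 0 in the other. In all, 27 genes were at 0 in both WT NULL libraries with a KO mean of at least 10, and 20 of these are predicted models; 19 were above 0 in both KO libraries. Conversely, 21 genes were at 0 in both KO NULL libraries, 9 of them predicted models, and 14 were above 0 in both WT libraries. Most were not at 0 throughout the genotype. Of the 27, 8 were also at 0 in both WT libraries with IL-33, and of the 21, 8 were in both KO libraries with IL-33. Gm49450, a predicted model, was at 0 and 0 normalized counts in KO NULL fibroblasts, against 2508 and 1720.1 in WT NULL fibroblasts, and at 0 in KO FL and 0 in KO M, against 2614 in WT FL and 1869 in WT M, so it was read in all 4 WT libraries and in no KO library. Cxcl15 (lungkine), a chemokine of lung epithelium, had a listed 0 in each KO NULL library, against 94.8 and 65.7 in WT NULL. With IL-33 it was at 6.97 in KO FL and 12.2 in KO M, against 22.5 in WT FL and 4.03 in WT M. Such a pattern also arose between libraries of 1 pair: 12 genes, 10 of them predicted models, were at 0 in 1 KO NULL library and at 50 or more in the other, and 8, all predicted models, did so in the WT pair. Examples are Gm42605, at 0 and 379.8 in KO NULL, and Gm42634, at 328 and 0.

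The IL-33 libraries share no library with the NULL comparison and give 1 KO and 1 WT library per vector, with no replicate. Il33 was at 1080200 in KO FL against 593840 in WT FL, and at 81110 in KO M against 248960 in WT M. It was thus higher in KO with FL and lower in KO with M. The part of this unequal Il33 level in the values below was not tested. WT M stood apart from the other 7 libraries in its marker sums, as plotted, for example with 55835 in the macrophage list against 24611 in WT FL. Of the 573 genes at least 2-fold higher in KO NULL, 504 were also higher in KO with FL, 357 with M and 331 with both (57.8%), where 28.9% of all tested genes were higher in KO with both. Their median log2 change was 1.51 with NULL, 1.03 with FL and 0.42 with M. Of the 385 at least 2-fold lower, 352 were also lower with FL, 263 with M and 247 with both (64.2%, against 26.7% of all tested genes), with medians of -1.43, -1.16 and -0.63. The NULL medians come from the values by which the genes were picked.

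With IL-33, Hormad1 was at 1428 in KO FL and 1434 in KO M, against 2.15 in WT FL and 0 in WT M. Sult4a1 was at 42.3 in KO FL and 65.3 in KO M, against 773 in WT FL and 962 in WT M. Both genes differed between KO and WT in the same direction as with NULL virus and by many fold. Other large NULL changes reversed with M. Mmp3 was at 820 in KO M against 1709 in WT M, and Rgs4 at 268 in KO M against 93.8 in WT M. With FL, Mmp3 was higher in KO and Rgs4 lower, as with NULL. Eln was at 5323 in KO FL and 7088 in KO M, against 68999 in WT FL and 18425 in WT M, lower in KO with both vectors. The 84 interferon effectors had a median log2 change of 0.23 with FL and 0.47 with M, against 1.16 with NULL. Their summed level was 147720 in KO FL and 159790 in KO M, against 117180 in WT FL and 100210 in WT M. The guanylate-binding protein and GTPase list had medians of -0.05 with FL and 0.11 with M, against 1.13 with NULL. Medians of the other effector lists were positive with both vectors. Within that list Iigp1 was lower in KO with both (log2 -0.77 with FL, -0.73 with M), whereas Gbp2 stayed higher (0.95 and 0.98). Irf7 was at 4559 in KO FL and 5535 in KO M, against 2158 in WT FL and 2874 in WT M.

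The change in the genotype difference was tested in the fit of 8 libraries in 4 groups, as the KO effect with IL-33 minus the KO effect with NULL. It was called for 20 of 15527 genes (0.129%), 6 with a positive and 14 with a negative difference. Ly6e was at 10306 in KO FL and 10907 in KO M, against 5790.1 in WT FL and 6267 in WT M, and its difference was -1.52, SE 0.11, adjusted p = 0.00775 on the log2 scale. Zbp1, at 1222 in KO FL and 1423 in KO M, against 527 in WT FL and 635 in WT M, had a difference of -2.39, SE 0.20, adjusted p = 0.0124, and Oas2 was at 451 in KO FL and 524 in KO M, against 333 in WT FL and 299 in WT M. The difference of Oas2 was -2.35, SE 0.20, adjusted p = 0.0138. These genes were higher in KO in all 3 settings, by less with IL-33. Eln was not called (2.04, SE 0.76, adjusted p = 0.543). The count of 20 in limma was 0 to 3 without any 1 of the NULL or KO libraries (661 to 851 at an unadjusted p under 0.05), 5604 without WT FL and 489 without WT M. The last 2 fits leave 1 WT library with IL-33 and so drop the spread between the WT isoform libraries.

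**Figure D5:**
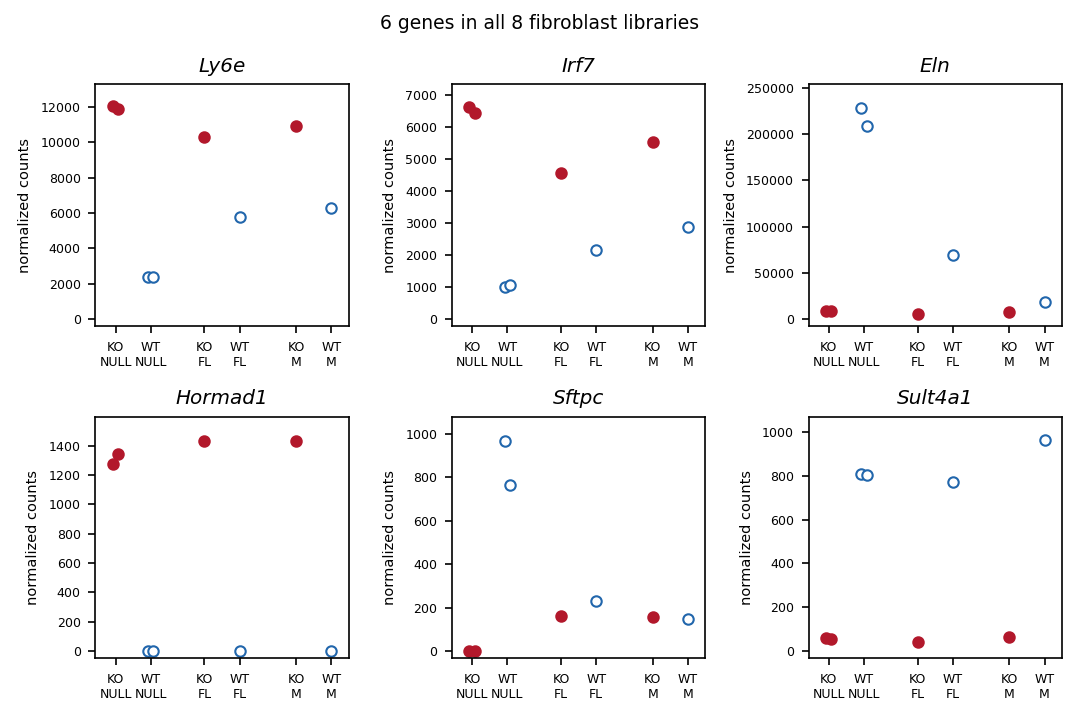
Level (y axis, normalized counts, linear from 0) of 6 genes in the 8 fibroblast libraries, KO in filled red and WT in open blue, for NULL virus (2 libraries per genotype) and full-length (FL) or mature (M) IL-33 virus (1 each). Ly6e and Irf7 lie higher in KO than in WT in each setting; Hormad1 and Sult4a1 lie far apart in all of them; Sftpc is near 0 only in the KO NULL pair.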

How the data were processed

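RNA sequencing of mouse lung fibroblasts was used as deposited. Per the submitters' processing notes, the authors used Salmon and DESeq2 with GRCm38.p6; versions, library type and filters are not given in the sources used here. The deposited unit is a signal, normalized counts per gene. Of low values up to 12, 59.9% to 71.4% were whole multiples of the commonest step within 0.02, so reads were not recovered, depth is unknown and no count test was run. After addition of 1 and a log2 transform, 15527 of 54331 genes (mean of at least 10 over 8 libraries) were tested with limma-trend (limma 3.58.1, R 4.3.3; 2 residual and 4.74 prior degrees of freedom), two-sided, with Benjamini-Hochberg adjustment over all of them. The function was tested on simulated data. Gene positions came from GENCODE M21, where 53444 IDs matched exactly, and promoter windows from RefSeq. Named genes were Il1rl1 and Il33, the 12 largest rises and falls, up to 4 of smallest p per list, 6 genes near Il1rl1 and 6 on-off genes per direction; any other gene was named after its values were seen, whether or not the text marks it, and a few genes that the rule names are not reported here. The members and the 35 gene lists were chosen with earlier results of these data known. The alternatives were another added value, filter, scaling, variance model, grouping or block, and leaving out each library. Tables and figures used Python 3.11.15, pandas 2.3.3, numpy 2.4.6 and matplotlib 3.10.9.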

Additional observations from a re-analysis of the deposited data

Results flagged for a closer look

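For 12 named genes the difference between KO and WT was itself different with IL-33 and with NULL virus (limma, 8 libraries in 4 groups, adjusted p under 0.05). The values given are the KO effect with IL-33 minus the KO effect with NULL, on the log2 scale. Among interferon-stimulated genes it was -2.39 for Zbp1, -2.35 for Oas2, -1.52 for Ly6e, -1.70 for Slfn5 and -2.58 for Ly6a, and for the complement gene C4b it was -2.08. In these 6 genes the KO level was above the WT level in every setting, and Slfn5, for example, was at 855 in KO FL and 908 in KO M, against 685 in WT FL and 749.8 in WT M.

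Igfbp3 had a difference of -1.72: it was lower in KO with NULL (1036 and 1031 in KO NULL and 3157 and 3379.9 in WT NULL) and by more with IL-33 (701 in KO FL and 683 in KO M, against 6917 in WT FL and 7452 in WT M). The alveolar type 2 genes Sftpc (8.92), Sftpb (7.17) and Slc34a2 (6.71) had positive differences, as they were at or near 0 only in the KO NULL pair. Sftpb was at 55.8 in KO FL and 57.3 in KO M, against 49.6 in WT FL and 54.3 in WT M. The predicted models Gm36569 (-6.61) and Gm2223 (-7.46) were at 0 in both WT NULL libraries and above 0 in WT with IL-33. The size of a difference that rests on values at 0 depends on the 1 added before the log.

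All 12 lost the call without KO FL, KO M, WT NULL 1 or WT NULL 2, and 10 of the 12 without KO NULL 1 or KO NULL 2; 11 lost it with the replicate block. With 1 library per vector and genotype, IL-33, its isoform and the single culture behind each library cannot be told apart.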

How the results depend on the processing

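No named gene that was called changed direction under any alternative run; of those not called, Il1rl1 did, at -0.57 without WT NULL 1, and so did some genes with changes near 0. Lower calls outnumbered higher ones (2612 and 2477), but not with 8 libraries in 4 groups (264 and 400), without WT NULL 1 (2028 and 2114) or without WT NULL 2 (1910 and 2116). The 5089 calls became 5066 to 5191 with 0.5 or 8 added, another filter on low values, median-of-ratios or quantile scaling or 6 groups, apart from 4921 at a mean of at least 50, where the 2-fold counts were 375 higher and 239 lower, as fewer genes were tested. Without the mean trend 2822 were called (1402 higher, 1420 lower). With 8 libraries in 4 groups 664 were called (400 higher, 264 lower; 228 and 114 by at least 2-fold). Leaving out 1 NULL library gave 2624 to 4142 calls, 1228 to 2116 higher and 1396 to 2028 lower. With replicate 1 or 2 fitted as a replicate block 4198 were called (2085 higher, 2113 lower). Replicate differences in KO and WT correlated at 0.0231 across genes. The labels do not state whether libraries of the same number share more than the number, and this correlation cannot decide it. The count of 20 genes whose KO effect differed with IL-33 was 12 with 8 added, 1 with the replicate block, and 0 to 5604 when 1 library was left out; 6 of the 20 were positive, against 3163 of the 5604 without WT FL. Of 170 named genes, some of which were not called in the main fit and so had no call to lose, 78 were no longer called in the 4-group fit. Without the mean trend 13 were no longer called. The causes of these changes were not tested beyond what each alternative removes. Depth is unknown, so what it limits was not measured.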
